A study of Mus musculus with 2 samples.

Results

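The let-7 family genes were examined in the midbrain of mouse embryos of strain B6NCrl at embryonic day 10.5, in 2 small RNA libraries. The 9 members, taken by gene symbol, were Mirlet7a-1, Mirlet7a-2, Mirlet7b, Mirlet7c-1, Mirlet7c-2, Mirlet7d, Mirlet7f-2, Mirlet7g and Mirlet7i, out of 1973 counted microRNA genes. The series has 1 group of healthy, untreated tissue and 2 biological replicates. Replicate 1 was a pool of midbrains from 69 embryos and replicate 2 a pool from 51 embryos, both of mixed sex. The RNA was of a size range below 30, per the labels, and the deposited values are raw reads per gene. No other tissue, stage or treatment belongs to the series, and the data therefore give the level of each let-7 gene and the difference between 2 pools, with no contrast between conditions and no p-value. Because each value comes from bulk tissue, fewer cells of a type and less RNA per cell cannot be told apart.

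A let-7 gene is transcribed as part of a long primary transcript, cut by Drosha to a hairpin and by Dicer to a short duplex, of which mostly the 5′ strand (5p arm) is loaded into an Argonaute protein. The seed, bases 2 to 8 of the mature strand, pairs with target messages, among them those of Hmga2, of Lin28 itself and of other genes of immature cells. LIN28 proteins, which are known from stem cells and the early neural tube, bind the loop of let-7 precursors and hold back their maturation, and mature let-7 is known to accumulate as neural cells differentiate.

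All 9 hairpins matched RefSeq entries (GRCm38.p6, the same assembly as mm10). Their 5p arms come in 7 different sequences, shown here because the family's members differ by so few bases. The arms of let-7e and miR-98, which have the same seed but are not among the 9 genes, are given with them. Capitals mark the seed.
let-7a (Mirlet7a-1 and Mirlet7a-2): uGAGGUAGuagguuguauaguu
let-7b (Mirlet7b): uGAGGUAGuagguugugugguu
let-7c (Mirlet7c-1 and Mirlet7c-2): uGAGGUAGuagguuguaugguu
let-7d (Mirlet7d): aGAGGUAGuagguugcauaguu
let-7f (Mirlet7f-2 and Mirlet7f-1): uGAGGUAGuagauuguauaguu
let-7g (Mirlet7g): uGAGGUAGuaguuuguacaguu
let-7i (Mirlet7i): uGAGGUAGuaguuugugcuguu
let-7e (Mirlet7e): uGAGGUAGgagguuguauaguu
miR-98 (Mir98): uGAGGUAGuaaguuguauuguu

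All of them are 22 bases long and have the seed GAGGUAG. Counted from 1 at the 5′ end and with the let-7a base first, let-7c differs from let-7a by A19G, let-7e by U9G and let-7f by G12A. A pair of substitutions separates let-7b (A17G and A19G), let-7d (U1A and U16C), let-7g (G12U and U18C) and miR-98 (G11A and A19U) from let-7a. The most distant arm is that of let-7i, with 4 substitutions (G12U, A17G, U18C and A19U). For let-7a, let-7b, let-7c, let-7e and let-7f the nearest other arm in this set lies 1 substitution away. For let-7d, let-7g, let-7i and miR-98 the nearest lies 2 away.

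These identities bear on every count that follows, because reads that map to several places stand in a row of their own in the deposited files and are in no gene's count. Such reads numbered 2412710 in replicate 1 and 2775444 in replicate 2, which is 82.6 and 167 times all reads assigned to the 9 genes. How many of them are let-7 reads is not given in the files. The 5p arm of Mirlet7a-1 is also that of Mirlet7a-2, that of Mirlet7c-1 is also that of Mirlet7c-2, and that of Mirlet7f-2 is also that of Mirlet7f-1. Mirlet7a-1 and Mirlet7c-2 moreover share their 3p arm, so that 2 members have no arm of their own. These arms are printed to show the identity, with bases 2 to 8 in capitals.
let-7a-1-3p (Mirlet7a-1): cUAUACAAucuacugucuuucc
let-7c-2-3p (Mirlet7c-2): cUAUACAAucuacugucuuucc

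Of the 9 members, 4 (Mirlet7b, Mirlet7d, Mirlet7g and Mirlet7i) have no arm that occurs in another mouse hairpin of the RefSeq table, 3 share the 5p arm alone and 2 share both. The comparison was made against microRNA hairpins and not against the whole genome. Counts are per gene and do not separate the arms.

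The libraries held 3297835 gene-assigned reads in replicate 1 and 3682410 in replicate 2, which were 42.2% and 39.1% of all reads. CPM here means reads per 1000000 gene-assigned reads. Of the genes that mark the tissue, Mir92b of neural progenitors had 21245.5 and 25352.4 CPM, and the 3 Mir135 genes of the midbrain and forebrain summed to 6784 and 4688 CPM. Mir9-3 had 137 and 66.8 CPM and Mir124a-2 of neurons had 17.0 and 9.78 CPM, both more than 1.5-fold higher in replicate 1. So were 8.28% of all genes of mean CPM 10 or more (28 of 338). Mir124a-2 reached that mean through replicate 1. Mir92b was lower in replicate 1, by less than 1.5-fold. Mir124a-3, below the filter of mean CPM 10 used for ratios, was also lower in replicate 1 with 16 and 34 reads, or 4.85 and 9.23 CPM. Of these, 9 and 14 reads stood in the column taken below as the strand opposite to the gene, and 7 and 20 in the other. Mir9-2, with 3 and 4 reads, and Mir124a-1, with 7 and 2 reads, were near 0. Mir9-1 is not among the counted rows. The mature forms of miR-9 and miR-124 come from several loci each.

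The 9 let-7 genes were all detected and together made up a small part of the profile. They held 29196 reads in replicate 1, or 0.885% of the gene-assigned reads (95% Wilson interval 0.875 to 0.895%), and 16660 reads in replicate 2, or 0.452% (0.446 to 0.459%). The share was hence 0.669% ± 0.306 (SD, n = 2), 1.96 times as large in replicate 1 as in replicate 2. Each interval was computed within 1 library and covers the counting error of reads only. PCR copies of a molecule count as separate reads here, so the intervals can be too narrow for molecules. The difference between the pools lies far outside the intervals.

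Mirlet7g (ENSMUSG00000065440.1, chr9:106178840-106178927, plus strand, in an intron of Wdr82, which encodes a WD repeat protein) was the most abundant member. It had 5815 CPM in replicate 1 and 2949 CPM in replicate 2, from 19176 and 10859 reads, and a mean of 4382 ± 2026 CPM (SD, n = 2). Ranked 51 of 1973, it stood between Mir15a (4485 ± 451 CPM) and Mir214 (3871 ± 375 CPM). The values of Mirlet7g in the replicates enclose those of both of these genes, so its place in that order was not fixed beyond the spread. Mirlet7i (ENSMUSG00000065406.2, chr10:122985640-122985724, minus strand, in an exon of the transcribed pseudogene D630033A02Rik) followed with 2376 and 1142 CPM, a mean of 1759 ± 873 CPM. It was next to Mir337 (1763 ± 196 CPM) and Mir532 (1755 ± 70.7 CPM), whose own values fall within its range.

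Mirlet7d (ENSMUSG00000065453.1, chr13:48536012-48536114, minus strand, in an exon of the lincRNA 6720427I07Rik) had 423 CPM in replicate 1 and 283 CPM in replicate 2. Its mean of 353 ± 98.8 CPM (SD, n = 2) lay between Mir195a (359 ± 43.0 CPM) and Mir148a (350 ± 16.5 CPM). Mirlet7g, Mirlet7i and Mirlet7d, none of which shares an arm with another locus, together held 97.3% of the family's reads in replicate 1 and 96.7% in replicate 2.

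The other 6 members had 789 reads in replicate 1 and 554 in replicate 2 between them. Mirlet7f-2 (ENSMUSG00000065602.1, chrX:151912346-151912428, plus strand, in an intron of Huwe1, the gene of a ubiquitin ligase) had 396 and 301 reads, or 120 and 81.7 CPM. Mirlet7c-1 (ENSMUSG00000065557.2, chr16:77599657-77599750, plus strand, in an intron of Mir99ahg and opposite an intron of Gm11146) had 182 and 124 reads, or 55.2 and 33.7 CPM. Mirlet7a-2 (ENSMUSG00000092770.1, chr9:41536716-41536811, plus strand, in introns of 3110039I08Rik and Gm49317) had 100 and 71 reads, or 30.3 and 19.3 CPM. These are the 3 members with a shared 5p arm and a 3p arm of their own.

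The lowest counts belonged to the members with no arm of their own and to Mirlet7b. Mirlet7a-1 (ENSMUSG00000065421.2, chr13:48538179-48538272, minus strand, in an exon of 6720427I07Rik) had 51 reads in replicate 1 and 34 in replicate 2, or 15.5 and 9.23 CPM. Mirlet7b (ENSMUSG00000065564.1, chr15:85707319-85707403, plus strand, in an exon of Lncppara) had 29 and 16 reads, or 8.79 and 4.34 CPM. Mirlet7c-2 (ENSMUSG00000065608.1, chr15:85706603-85706697, plus strand, in an exon of the same transcript) had 31 and 8 reads, or 9.40 and 2.17 CPM. Mirlet7b is the exception to the order by shared arms, since both of its arms occur at no other listed hairpin, and its 5p arm is 1 substitution from that of let-7c. Whether the low counts come from shared or similar sequence, or from little RNA, was not tested.

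From Mirlet7g to Mirlet7c-2 the mean level fell 757-fold. Each member stood above the next in both libraries without overlap of their values, with 1 exception: Mirlet7b and Mirlet7c-2 overlapped and changed places between the replicates. The other 7 members held the same place in each library. Hairpins of the 9 genes are 83 to 103 bases long. The order of all 9 was the same when reads were divided by hairpin length, which so narrow a range of lengths could hardly change.

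**Figure D1:**
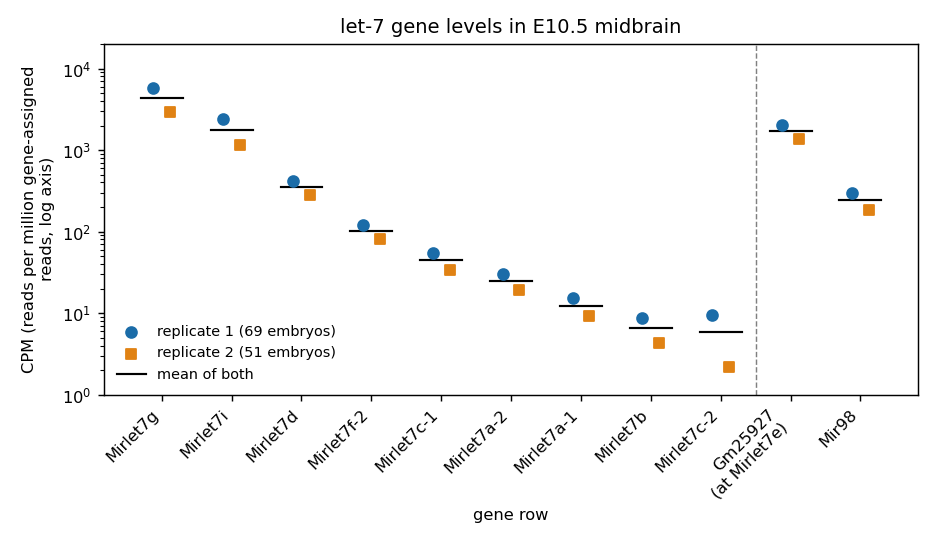
Level of each let-7 gene in the 2 libraries, as CPM on a log axis, with circles for replicate 1, squares for replicate 2 and a line at the mean. To the right of the dashed line stand Mir98 and the row Gm25927, which lies opposite Mirlet7e. Every gene row shown was higher in replicate 1, and levels spanned from 5815 CPM for Mirlet7g in replicate 1 to 2.17 CPM for Mirlet7c-2 in replicate 2.

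**Figure D2:**
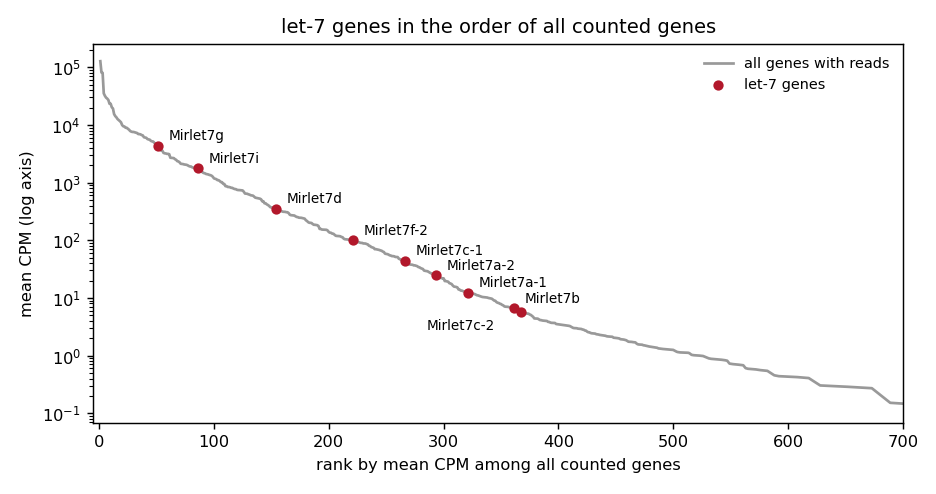
Mean CPM (log axis) of all counted genes with reads against their rank among 1973 counted genes, as a grey line, with the 9 let-7 genes as red points. Mirlet7g ranked 51 and Mirlet7c-2 ranked 367.

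Other loci with a let-7 arm were counted too, and 1 of them was among the highest. Mirlet7e itself is not among the counted rows, but Gm25927 (chr17:17830343-17830459, minus strand) covers the same place on the other strand, as annotated. That row had 6732 reads in replicate 1 and 5064 in replicate 2, or 2041 and 1375 CPM, with a mean of 1708 ± 471 CPM (SD, n = 2). All of these reads stood in the strand column that held 0 and 0 reads for Mirlet7g, and at most 1 read for any of the 9 members, which lie on both genome strands. That column is thus taken as the strand opposite to the annotated gene, which for Gm25927 is the strand of Mirlet7e. Mir98 (chrX:151913214-151913321) had 989 and 681 reads, or 300 and 185 CPM. Gm24111, a row opposite Mirlet7f-1, had 21 and 18 reads, all in that same column. Mir1961, whose mature form has the seed GAGGUAG, had 0 reads in both libraries, and Mir202, a related gene, had 0 and 1. With Mir98 and Gm25927 added, the share of the then 11 rows was 0.864% ± 0.361 (SD, n = 2).

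The precursors differ in a short motif of the loop. LIN28 proteins are known to contact GGAG in let-7 precursors through their zinc knuckles. GGAG was searched on the RNA strand between the 5p and 3p arms, and it was found in 7 of the 9 members, 3 or 4 bases before the 3p arm. The exceptions were Mirlet7b and Mirlet7c-2, the members of lowest mean level, which lie side by side on chromosome 15. Among 644 mouse hairpins with 2 listed arms, 8.07% had GGAG between them. The hairpins of the highest and the lowest members follow to show this, with GGAG in capitals where it was found between the arms.
Mirlet7g: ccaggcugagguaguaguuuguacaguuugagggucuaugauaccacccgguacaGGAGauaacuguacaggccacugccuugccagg
Mirlet7i: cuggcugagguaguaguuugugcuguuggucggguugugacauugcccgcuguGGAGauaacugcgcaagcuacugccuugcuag
Mirlet7b: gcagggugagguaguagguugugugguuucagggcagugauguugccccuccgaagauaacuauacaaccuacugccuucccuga
Mirlet7c-2: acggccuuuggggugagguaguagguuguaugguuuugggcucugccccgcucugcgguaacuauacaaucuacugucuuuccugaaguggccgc

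GGAG stood in the highest members as well as in rare ones. Mirlet7g and Mirlet7i, which have it, were the highest members, and Mirlet7e has it as well. Mir98, which lacks it, stood at 242 ± 81.3 CPM (SD, n = 2), between Mirlet7d and Mirlet7f-2. These are levels of counted reads, and the sequences are a description that shows nothing of LIN28 binding.

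All 9 let-7 genes had more CPM in replicate 1 than in replicate 2. Among all genes of mean CPM 10 or more, 52.7% (178 of 338) had a ratio above 1. That ratio of replicate 1 over replicate 2 was computed per gene after scaling by TMM, a method that sets the bulk of genes equal, with 0.5 reads added. Mirlet7g was 1.97-fold higher in replicate 1 (95% counting interval 1.92 to 2.01) and Mirlet7i 2.07-fold (2.00 to 2.15). Mirlet7d was 1.49-fold higher (1.37 to 1.61) and Mirlet7f-2 1.46-fold (1.26 to 1.71). The intervals of Mirlet7g and Mirlet7i lie above those of Mirlet7d and Mirlet7f-2, but they cover counting error only, and with 1 library per pool the spread between libraries of a pool is not known. The 3 rarer members that passed the filter on level had wide intervals that overlap both pairs, with 1.63-fold for Mirlet7c-1 (1.29 to 2.07), 1.56-fold for Mirlet7a-2 (1.14 to 2.16) and 1.66-fold for Mirlet7a-1 (1.06 to 2.66).

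That filter, a mean of at least 10 CPM, was passed by 7 of the 9 members and by 338 genes in all. More than 1.5-fold higher in replicate 1 were 5 of the 7, against 8.28% of all genes that passed (28 of 338). The other 2, Mirlet7d and Mirlet7f-2, were just under the threshold. Mirlet7a-1, among the 5, reached the filter on the mean through replicate 1, with 15.5 CPM there and 9.23 CPM in replicate 2. No let-7 gene was lower in replicate 1. The median log2 ratio was 0.71 over the 7 members, with a range of 0.55 to 1.05, beside 0.03 over the 338 genes, whose middle part (quartiles) spanned −0.23 to 0.28. Mirlet7i ranked 6 and Mirlet7f-2 ranked 33 by ratio among the 338, and the other 5 members lay between. Mirlet7b, at 1.99-fold (counting interval 1.06 to 3.98), and Mirlet7c-2, at 4.12-fold (1.94 to 10.9), did not pass the filter, and their values rest on few reads. With 1 library per pool, these ratios compare 2 libraries, and differences in the embryos, the dissection and the library preparation cannot be told apart.

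**Figure D3:**
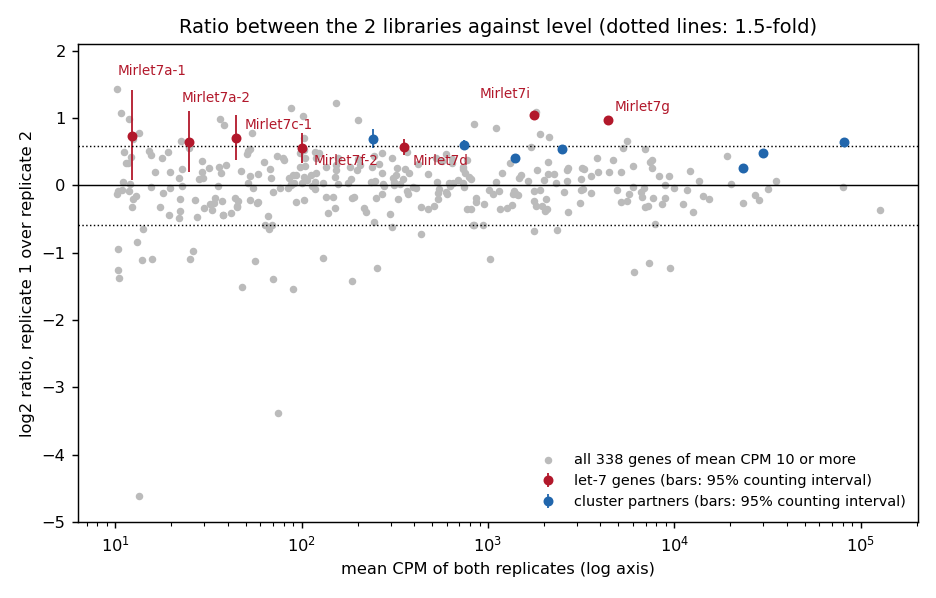
The log2 ratio of replicate 1 over replicate 2 against mean CPM (log axis) for the 338 genes of mean CPM 10 or more, in grey, with 7 let-7 genes in red and 7 cluster partners in blue, with bars for 95% counting intervals and dotted lines at 1.5-fold. All red and blue points lie above 0, and the red points lie between 0.55 and 1.05.

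The shares of the 3 highest members in the family's reads differed less between the libraries than the family's total. These 3 genes form most of that total, with 97.3% of it in replicate 1 and 96.7% in replicate 2. The share of Mirlet7g in particular could not have differed as much as the total did. Mirlet7g held 65.7% of the family's reads in replicate 1 and 65.2% in replicate 2. Mirlet7i held 26.8% and 25.2%. Mirlet7d held 4.77% and 6.25%, the largest relative difference among these 3. Among the rare members the shares of Mirlet7c-2, 0.106% and 0.0480%, differed more than the total did, on 31 and 8 reads.

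Most let-7 genes lie in clusters whose members can be cut from 1 primary transcript. On chromosome 16 Mirlet7c-1 lies 656 bases from Mir99a and 46522 bases from Mir125b-2. Mir99a had 326938 reads in replicate 1 and 231787 in replicate 2, which is 1796 and 1869 times the reads of Mirlet7c-1. Mir125b-2 had 2954 and 2169 reads, 16.2 and 17.5 times as many as Mirlet7c-1. On chromosome 9 Mirlet7a-2 lies 5211 bases from Mir100, which had 114243 and 91533 reads, 1142 and 1289 times its own, and 45114 bases from Mir125b-1, with 5283 and 4415 reads. Within these loci the let-7 gene was thus by far the lowest in counted reads. Whether the arms of these partners, such as those of Mir125b-1 and Mir125b-2, occur at other loci was not examined. How many of their reads were lost as multiply mapped is not known.

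The ratios between the libraries were also set side by side within these loci. Log2 ratios lay close together over all 338 genes (quartiles −0.23 to 0.28). Whether they are more alike within a locus was not tested. On chromosome 16 the log2 ratio of replicate 1 over replicate 2 was 0.71 for Mirlet7c-1, 0.65 for Mir99a and 0.60 for Mir125b-2. On chromosome 9 it was 0.65 for Mirlet7a-2, 0.47 for Mir100 and 0.41 for Mir125b-1. The counting intervals of Mirlet7c-1 (0.37 to 1.05) and of Mirlet7a-2 (0.20 to 1.11) include the values of their partners, but these intervals are wide because the reads are few.

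At the third locus of this kind, on chromosome 17, Mirlet7e lies 94 bases from Mir99b and 367 bases from Mir125a. Its level, read from the row Gm25927, was closer to its partners. Mir99b had 83816 reads in replicate 1 and 77984 in replicate 2, 12.5 and 15.4 times those of Gm25927, and Mir125a had 9707 and 7464 reads, 1.44 and 1.47 times as many. The log2 ratios were 0.57 for Gm25927, 0.26 for Mir99b and 0.53 for Mir125a. Unlike let-7a and let-7c, let-7e has no second locus with the same arm. Mirlet7b has none either and had 29 and 16 reads. Whether shared arms bear on these levels was not tested.

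The other clusters are made of let-7 genes alone, or with miR-98. On chromosome X Mirlet7f-2 and Mir98 lie 785 bases apart, and Mir98 had 2.50 times the reads of Mirlet7f-2 in replicate 1 and 2.26 times in replicate 2, with log2 ratios of 0.55 for Mirlet7f-2 and 0.69 for Mir98. On chromosome 13 Mirlet7a-1 and Mirlet7d lie 2064 bases apart with Mirlet7f-1 between them, and Mirlet7d had 27.3 and 30.6 times the reads of Mirlet7a-1. Their log2 ratios were 0.73 and 0.57. On chromosome 15 Mirlet7c-2 and Mirlet7b lie 621 bases apart and were the lowest members. Their log2 ratios stood further apart, at 2.04 for Mirlet7c-2 and 0.99 for Mirlet7b. Both rest on few reads, and their counting intervals (0.96 to 3.44 and 0.08 to 1.99) overlap. Over the list of 7 cluster partners, 7 of 7 had a log2 ratio above 0 and 3 of 7 (Mir99a, Mir125b-2 and Mir98) were more than 1.5-fold higher in replicate 1, with a median log2 ratio of 0.53. Over all 338 genes, 52.7% had a log2 ratio above 0 and 8.28% were more than 1.5-fold higher.

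**Figure D4:**
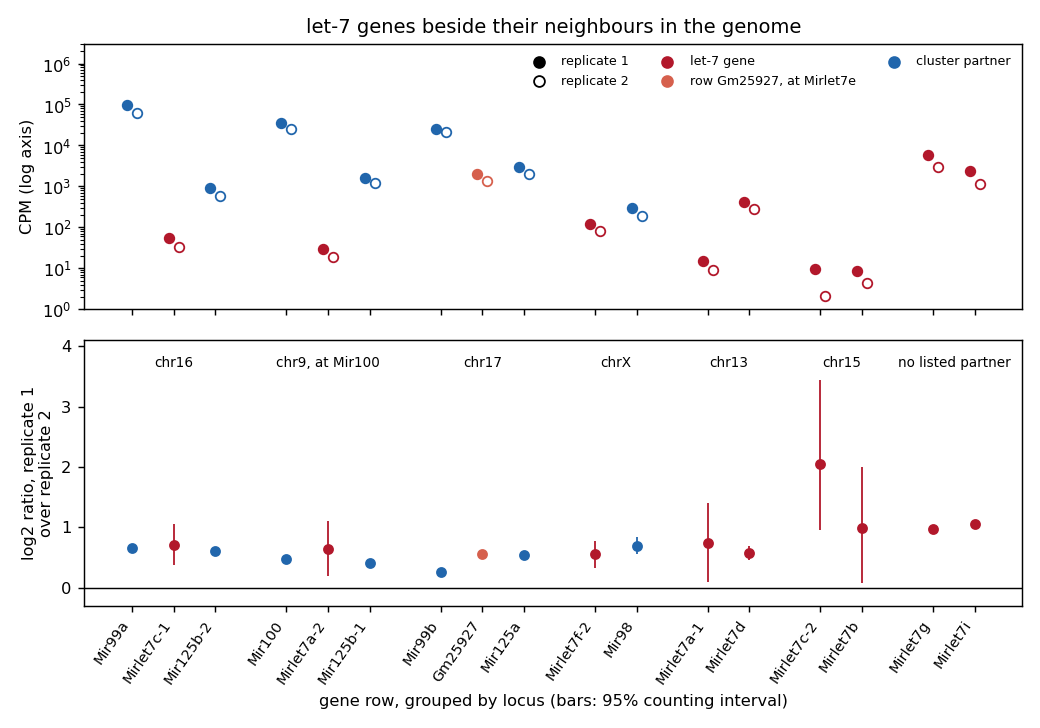
CPM on a log axis (top, filled for replicate 1, open for replicate 2) and log2 ratio of replicate 1 over replicate 2 with 95% counting intervals (bottom) for let-7 genes in red and their cluster partners in blue, grouped by locus. On chromosomes 16 and 9 the let-7 gene stands more than 1000 times below Mir99a or Mir100 in the top panel. In the bottom panel the intervals of Mirlet7c-1 and Mirlet7a-2, which are wide, include their partners' ratios.

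Outside these lists, the genes of mean CPM 1000 or more whose log2 ratio was nearest to that of Mirlet7g (0.97) were Mir137 at 0.86, Mir181b-2 at 1.09 and Mir153 at 0.77. Mir181b-2 had 2473 CPM in replicate 1 and 1158 CPM in replicate 2. Mir137 had 1424 CPM in replicate 1 and 782 CPM in replicate 2, and Mir153 had 2403 and 1407.5 CPM. Mir137 and Mir153 are known from neurons. Likeness here rests on 2 libraries only.

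Genes listed for other tissues or cell types also differed between the pools. Which cells of the pools their reads came from was not tested, and midbrain cells may be among them. The 5 genes listed for pluripotent cells (the mir-302 cluster and Mir367) summed to 14462.5 CPM in replicate 1 and 33419.7 CPM in replicate 2. All 4 that passed the filter were more than 1.5-fold lower in replicate 1, against 8.88% of all genes that passed (30 of 338). The 5 Hox-embedded genes of hindbrain, spinal cord and trunk summed to 155 and 384 CPM, with 3 of 3 lower by that measure and Mir196a-1 at 0. Eye and pigment genes summed to 249 and 431 CPM, with 2 of 3 lower, and Mir122 of the liver had 5.76 and 15.2 CPM. Epithelial genes summed to 3397 and 4092 CPM, with 2 of 7 lower, and Mir126a of endothelium had 26449.5 and 30779.6 CPM. Mesenchymal genes summed to 16221.5 and 13240.5 CPM, with 1 of 5 more than 1.5-fold higher, against 8.28% of all genes that passed (28 of 338). Erythroid genes summed to 404 and 374 CPM with 1 of 3 lower, leukocyte genes to 588 and 581 CPM and muscle genes to 49.7 and 55.7 CPM with Mir1a-1 at 0, and no leukocyte or muscle gene that passed the filter exceeded 1.5-fold. The part of these differences in the let-7 result was not tested.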

How the data were processed

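Each library has 1 deposited file of raw counts, reads per gene, which the authors made from reads aligned to mm10 and counted on GENCODE M4, per the description deposited with the files. The aligner was not given in the sources used here. The first count column, equal to the sum of the 2 strand columns in every gene row, was used. Rows for unmapped, multiply mapped and unassigned reads made up 57.8% and 60.9% of the reads and stayed out of the library sizes. Gene identifiers were matched without version to GENCODE M21 (GRCm38, the same assembly as mm10) and 1894 of 1973 matched. Coordinates are 1-based.

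CPM, means and SDs over 2 replicates, and log2 ratios of replicate 1 over replicate 2 (0.5 added reads, TMM in edgeR 4.0.16) were computed, with exact (Clopper-Pearson) counting intervals at 95%. Values of 2 libraries of 1 group allow no test between conditions, so a fold of 1.5 among genes of mean CPM 10 or more was used as a description. The ratio was tested on simulated data that held counting error only, with as many genes raised as lowered. Such data have no other spread between libraries, so the effect of that spread on the ratio was not tested. The members, gene lists and marker lists were chosen with earlier results of these data known. Named were the 9 members, all counted genes of the lists of cluster partners and other let-7 loci with rows on their other strand, the genes next in level to the 3 highest members, and 3 genes nearest in ratio to Mirlet7g. Mir135a-1 was placed beside Mirlet7g after its values were seen, and marker genes were named for their lists. Alternatives were DESeq2 1.42.0 size factors, total counts, the second count column, other added reads and filters, other denominators, each replicate alone, and leaving out members with shared arms. Work was done in Python 3.11.15 and R 4.3.3.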

Additional observations from a re-analysis of the deposited data

Results flagged for a closer look

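The row Gm25927 held 6732 reads in replicate 1 and 5064 reads in replicate 2 in the third count column, the strand opposite to the annotated gene, where each of the 9 let-7 genes had at most 1 read. No comparison of the 9 genes uses that row. It overlaps Mirlet7e, and its mean level of 1708 CPM lies close to that of Mirlet7i (1759 CPM) and above that of Mirlet7d (353 CPM). The row was below Mirlet7i in replicate 1 (2041 against 2376 CPM) and above it in replicate 2 (1375 against 1142 CPM).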

How the results depend on the processing

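The log2 ratio of replicate 1 over replicate 2 stayed above 0 for each of the 9 members under 5 alternatives of scaling, strand column and added reads (45 of 45 values), and 44 of the 45 lay within the gene's counting interval, the exception being Mirlet7g at 0.94 with DESeq2 size factors. Those factors shifted all log2 ratios by −0.03 relative to TMM. It was the largest shift of any scaling, and the lowest ratio of a member was 0.55, so rescaling could not change a sign. Under these 5 alternatives the number of members more than 1.5-fold higher in replicate 1 was 5. With a filter at mean CPM 100 it was 2 of 4 members, beside 15 of 222 genes, because fewer genes were counted. With every gene that had a read, it was 7 of 9 members beside 175 of 769 genes. Without members that share an arm, only Mirlet7g, Mirlet7i and Mirlet7d passed the filter, and their median log2 ratio of 0.97 is that of Mirlet7g. The median over the members was 0.67 to 0.77 under the other scalings and filters. The family's share was 0.353% with all mapped reads as denominator, since multiply mapped reads then count in it, and 0.452 to 0.885% when 1 replicate was left out. No paired analysis was possible because the series has 1 group. A ratio cannot be formed without either replicate. Depth limits Mirlet7b, Mirlet7c-2 and Mirlet7a-1 most, with 8 to 51 reads.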

Other observations

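Mir135a-1 lies 24626 bases before Mirlet7g on the same strand of chromosome 9. It had 951 reads in replicate 1 and 853 in replicate 2, so Mirlet7g had more reads in both libraries. Its log2 ratio of replicate 1 over replicate 2 was 0.31, against 0.97 for Mirlet7g, and their counting intervals (0.18 to 0.45 for Mir135a-1, 0.94 to 1.01 for Mirlet7g) do not overlap. Mir135a-1 was chosen after its values were seen. On chromosome 17 the intervals of Gm25927 (0.51 to 0.62) and Mir99b (0.24 to 0.27), 94 bases apart at Mirlet7e, do not overlap either. These intervals cover counting error only.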
